A study of Homo sapiens with 8 samples.

Results

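The open regions of human chromosomes 17 and 22 were followed through a salt fractionation of chromatin from 293T cells. They were taken by position alone: all peaks on either chromosome in 8 peak lists, with peaks that shared at least 1 bp merged into 1 region. This gave 2069 of the 36845 regions of the whole series, 1443 on chromosome 17 and 626 on chromosome 22. They came from 6712 of the 119972 deposited peaks, 4691 on chromosome 17 and 2021 on chromosome 22.

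ATAC-seq marks accessible DNA with a transposase, and 293T is a human embryonic kidney line transformed with adenovirus DNA and carrying the SV40 large T antigen. All 8 libraries came from 293T cells that were crosslinked, permeabilised and tagmented before being mixed with Q Sepharose, a strong anion exchanger. The library FT is what did not stay on the resin, and G20, G100, G200, G300, G500, G700 and G1000 are successive washes with 20, 100, 200, 300, 500, 700 and 1000 mM NaCl. Each fraction was 1 library of 1 line with no replicate, so every test below compares libraries and not conditions, and intervals and the p-values of single regions cover counting error only. In their lists G200's peaks are called G50_200 and FT's GL, so the place of G200 in the salt order was not settled.

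Nucleosomal DNA is negatively charged, and the histones, other proteins and RNA bound to a fragment set how strongly it is held by an anion exchanger and at which salt it is released. Open regions are mostly promoters and enhancers, so a chromosome with many genes offers many of them. In interphase nuclei, gene-rich chromosomes such as 17, 19 and 22 tend to lie towards the interior and gene-poor ones towards the nuclear edge.

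The label gene-rich was checked against RefSeq's coding genes, counted by chromosome in GRCh38.p14 and divided by the distance from the first base to the last region in these files. Chromosomes 17 and 22 together held 12.2 coding genes per Mb, against 6.33 on the other 21 chromosomes. Chromosome 17 had 14.4 coding genes per Mb and ranked 2 of 23, and chromosome 22 had 8.80 and ranked 5. Chromosome 22 is acrocentric, and the distance includes its short arm, which held 0 regions. Regions were dense on chromosome 17, at 17.8 per Mb (rank 2), while chromosome 22 had 12.2 per Mb (rank 9), close to the 11.9 per Mb of the rest. Per coding gene they were fewer, 1.28 on chromosomes 17 and 22 and 1.88 on the rest, which placed chromosome 17 at rank 21 and chromosome 22 at rank 18 of 23.

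The share of a list's peaks that fell on chromosomes 17 and 22 differed between libraries and was highest in G200. FT had 1364 of 22807 peaks on them, or 5.98% (95% Clopper-Pearson interval 5.68 to 6.30). G20 had 5.67% of 19484 peaks there, G100 5.43% of 13244, G200 6.79% of 15988 (6.41 to 7.19) and G300 5.22% of 19717. G500 had 5.06% of 10384 peaks, G700 4.58% of 8102 (4.13 to 5.06) and G1000 5.02% of 10246. The interval of G200 overlapped that of no other library, and the washes of 500 mM and more held the 3 lowest shares.

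List length was then made equal by keeping the strongest 8102 peaks of every list by −log10 q, as many as G700 has. The shares were 6.76% (6.23 to 7.33) for FT, 5.85% for G20, 5.27% for G100, 6.85% (6.31 to 7.42) for G200, 5.28% for G300, 4.92% for G500, 4.58% for G700 and 5.01% for G1000. At equal length FT stood beside G200, and the intervals of both lay above those of G100 and of the washes from 300 mM on. The weakest peak kept had a −log10 q of 7.89 in FT, 5.36 in G200 and 1.32 in G700, so lists of equal length were not equally strict.

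The ratio of the highest to the lowest share across libraries was larger on each of the 2 chromosomes than on any other of the 23. Chromosome 17 took 4.75% of all G200 peaks and 3.14% of all G700 peaks, a ratio of highest to lowest share of 1.52, the largest of 23 chromosomes. Chromosome 22 took 2.04% of the G200 peaks and 1.42% of the G1000 peaks, a ratio of 1.43 and the second largest. At equal length chromosome 17 again ranked 1 (1.54) and chromosome 22 ranked 2 (1.49), there with FT highest at 2.15% and G500 lowest at 1.44%. Chromosomes 19 and 20, with ratios of 1.37 and 1.37 at equal length, also had their highest share in G200, so the pattern was not confined to chromosomes 17 and 22.

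**Figure D1:**
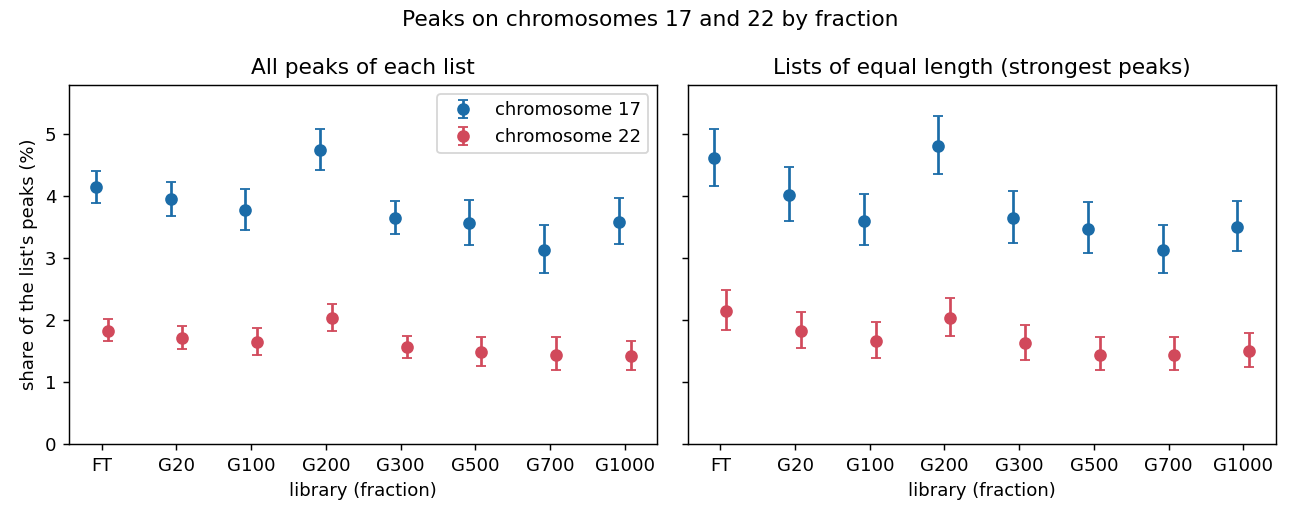
Share of each list's peaks (%, vertical axis) on chromosome 17 (blue) and chromosome 22 (red) by library, with all peaks on the left and lists of equal length on the right; bars are 95% Clopper-Pearson intervals. G200 is highest on chromosome 17 in both panels (4.75% and 4.81%), and FT reaches 4.62% on chromosome 17 and 2.15% on chromosome 22 at equal length.

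Peaks per coding gene show the same on the scale of genes. At equal length chromosomes 17 and 22 had 0.338 peaks per coding gene for FT, 0.293 for G20, 0.264 for G100, 0.343 for G200, 0.264 for G300, 0.246 for G500, 0.229 for G700 and 0.251 for G1000. The rest of the 23 chromosomes had 0.406 in FT, 0.408 in G200 and 0.417 in G700. Chromosomes 17 and 22 were below the rest in all 8 lists, and least so in G200 and FT.

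A trend with salt was tested over the 7 washes for 6 quantities, with exact permutation tests (two-sided, 5040 orders) and Benjamini-Hochberg adjustment over the 6. The share of all peaks had a Spearman's rho of −0.86 (exact permutation p = 0.0238, adjusted p = 0.0714) and a Pearson's r of −0.59 (exact permutation p = 0.161, adjusted p = 0.323). Without the 2 washes farthest from the median salt, r was −0.39. At equal length rho was −0.71 (exact permutation p = 0.0881, adjusted p = 0.176) and r was −0.59 (exact permutation p = 0.154, adjusted p = 0.323). No trend of the share with salt passed the threshold of 0.05 after adjustment over these washes. With FT ranked before G20, the share of all peaks had an adjusted exact permutation p of 0.0461 (rho −0.83), and without G200 it was 0.1 (rho −0.94).

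The only trend to pass was in peak width, and it depended on list length. The median peak on chromosomes 17 and 22 was 553.5 bp wide for FT, 463 for G20, 463 for G100, 476.5 for G200, 479 for G300, 443 for G500, 396 for G700 and 424 for G1000. Set against the median of the rest of each list, the difference was 27.5 bp for FT, 3 for G20, 1 for G100, −0.5 for G200, −9 for G300, −8 for G500, −24 for G700 and −20 for G1000. The median on chromosomes 17 and 22 was thus above that of the rest in FT and below it in the washes from 300 mM on. The 95% intervals of the medians were apart in FT (539 to 579, rest 521 to 530) and in G700 (383 to 413, rest 415 to 424). They overlapped or touched in G300 (465 to 497, rest 484 to 492), G500 (424 to 462, rest 447 to 455) and G1000 (401 to 439, rest 439 to 447). Over the washes rho was −0.93 (exact permutation p = 0.00675, adjusted p = 0.0405) and r was −0.92 (exact permutation p = 0.00456, adjusted p = 0.0274), and r was −0.89 without the 2 washes farthest from the median. Without G200 the trend did not pass (rho −0.89, exact permutation adjusted p = 0.1).

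At equal length this width trend was not found. The differences were −31 bp for FT, −17.5 for G20, −17 for G100, 4 for G200, −50.5 for G300, −14 for G500, −24 for G700 and −31 for G1000, with rho −0.39 (exact permutation p = 0.396, adjusted p = 0.444). The median width of the strongest peaks on the 2 chromosomes was below that of the rest in 7 of 8 lists, G200 being the exception. The intervals of the medians were apart in G300 (565 to 616, rest 630 to 641), G700 (383 to 413, rest 415 to 424) and G1000 (421 to 467, rest 468 to 478). In the other lists they overlapped. Peaks of 1000 bp or more made up 10.6% of FT's strongest peaks on chromosomes 17 and 22 and 15.8% of those on the rest, against 5.05% and 4.92% in G200. The peak's rank by −log10 q within its list had no trend that passed, with an adjusted exact permutation p of 0.444 for rho both with all peaks and at equal length.

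The median distance between neighbouring peaks was below that of the rest at equal length in all 8 lists, with intervals apart only in FT, G20 and G200. It was lowest in G200. The median distance was 90.5 kb for FT, 94.2 for G20, 120.4 for G100, 84.3 for G200, 122.8 for G300, 124.7 for G500, 149.3 for G700 and 116.2 for G1000. The rest of each list had 130.1 kb in FT, 128.7 kb in G200 and 149.9 kb in G700, so that in G700 the distances nearly met. The 95% intervals were apart in FT (81.8 to 100.4, rest 124.6 to 136.4), G20 (82.2 to 113.0, rest 127.5 to 139.7) and G200 (73.4 to 96.5, rest 123.0 to 135.8). They overlapped in the other lists, and the interval of G200 overlapped those of FT and G20. On chromosomes 17 and 22 G200 held 555 peaks, FT 548 and G700 371. More peaks on the same sequence lie closer together, so the order of the lists is partly built in. The share of neighbours under 10 kb apart was 6.59% in FT and 6.15% in G200, against 6.03% and 6.18% on the rest, while in G300 it was 3.76%, against 6.06%.

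Sharing between lists was close to that of the whole series. Of the 2069 regions, 198 were called in all 8 lists, or 9.57% (8.34 to 10.9), beside 11.6% on the rest and 11.5 percent over the whole series. A single list called 796 of them, 38.5% (36.4 to 40.6), beside 40.9% on the rest and 40.7 percent over the whole series. At equal length 146 of 932 regions were in all 8 lists, 15.7% (13.4 to 18.2), beside 18.1% on the rest and 18.0 percent over all. At that length 270 were in a single list, 28.97% (26.1 to 32.0), beside 31.6% on the rest and 31.4 percent over all. With all peaks, chromosomes 17 and 22 thus had somewhat fewer regions at both ends of the count and more in 2 to 6 lists, and at equal length both intervals reached the share of the rest.

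**Figure D2:**
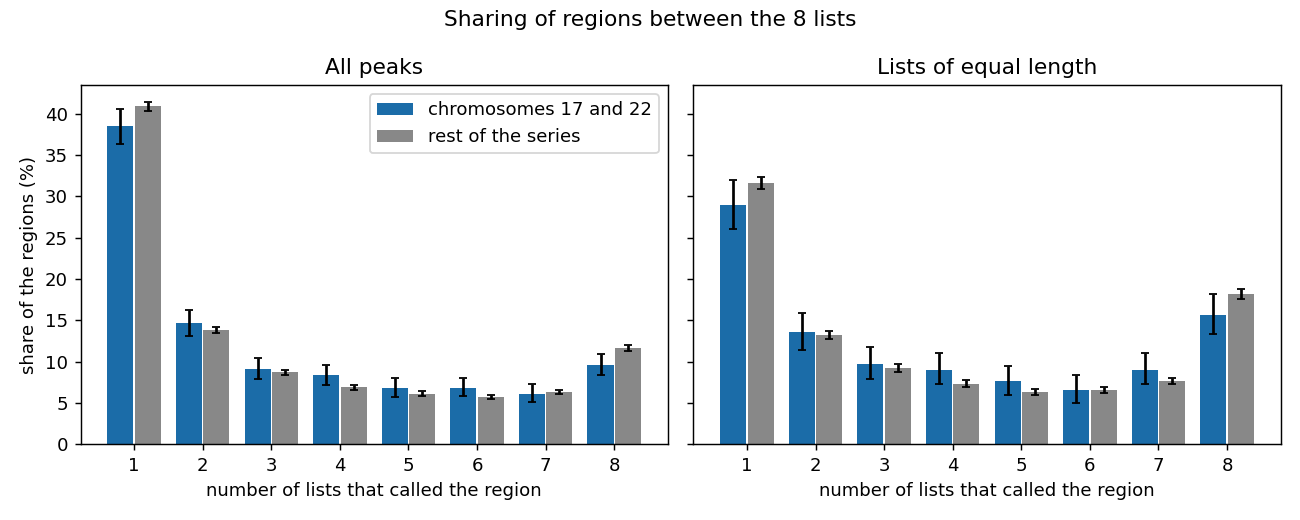
Share of the regions (%, vertical axis) called in 1 to 8 lists on chromosomes 17 and 22 (blue) and on the rest of the series (grey), with all peaks on the left and equal lists on the right; bars carry 95% Clopper-Pearson intervals. Regions in all 8 lists made up 9.57% on chromosomes 17 and 22 and 11.6% on the rest with all peaks.

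With all peaks, regions of more lists were wider, on chromosomes 17 and 22 as on the rest. Regions of a single list had a median width of 352.5 bp on chromosomes 17 and 22 and 349 bp on the rest, and those of all 8 lists 925 bp and 939 bp. A merged region grows with the number of peaks merged into it, so this order is partly built in.

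FT and G200 were the lists with most regions on chromosomes 17 and 22 that no other list called. With all peaks, 263 of the 796 single-list regions were FT's (33.0%, beside 28.8% on the rest) and 176 were G200's (22.1%, beside 15.3%). At equal length 61 of 270 were G200's (22.6%, beside 14.2% on the rest) and 48 were FT's (17.8%, beside 8.14%), and G700 had 36 (13.3%, beside 20.8%). Taken as a share of a list's own peaks on these chromosomes at equal length, single-list peaks were 11.0% in G200, against 9.45% on the rest, and 8.76% in FT, against 5.40%. In G100, G300, G500, G700 and G1000 that share was lower on chromosomes 17 and 22 than on the rest. With all peaks the share of single-list peaks was 19.3% in FT, near the 19.1% on the rest, and 16.2% in G200, against 14.6%.

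The regions missing from exactly 1 list were mostly those G700, G500 and G1000 lacked. Of 127 such regions with all peaks, 63 were missing from G700 (49.6%, beside 43.2% on the rest) and 2 from G200. G500 lacked 27 (21.3%, beside 19.7%) and G1000 25 (19.7%, beside 19.3%). G700, G500 and G1000 are the 3 shortest lists. On the rest G200 lacked 198 of 2193, or 9.03%, beside 1.57% on chromosomes 17 and 22. At equal length G200 lacked 2 of 84 (2.38%), beside 17.6% on the rest, and G700 lacked 25 (29.8%), beside 20.9%. A region on these chromosomes that 7 lists called was therefore seldom absent from G200. With all peaks FT, G20 and G300 were also seldom the missing list, lacking 1 (0.787%), 0 and 2 (1.57%) of the 127. That was so on the rest too, where they lacked 0.410%, 1.05% and 0.958%. At equal length G20 lacked 3 of the 84 (3.57%, beside 6.84% on the rest), FT 6 (7.14%, beside 10.7%) and G300 8 (9.52%, beside 4.53%).

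Pairs of lists were compared by the regions both called, as a share of each. The Jaccard index is the regions of both lists as a share of those in either. At equal length FT and G20 had the highest index on chromosomes 17 and 22, 58.9%, beside 57.2% (rank 2) on the rest. They shared 379 regions, which are 69.2% of FT's and 80.0% of G20's, beside 73.1% and 72.5% on the rest. G200 and G700 had the lowest index of the 28 pairs, 41.9%, with 273 shared regions, which are 49.2% of G200's and 73.8% of G700's. On the rest that pair also ranked 28, with 63.1% of G200's and 61.8% of G700's. FT and G200 shared 387 regions, 70.6% of FT's and 69.7% of G200's, near the 68.7% and 68.8% on the rest. Of the 126 regions called in exactly 2 lists, 13 were theirs (10.3%), beside 93 of 2096 on the rest (4.44%). That was the most of any pair, with 12 for FT and G20. FT and G200 also had the most regions on these chromosomes (548 and 555), which favours their pair.

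Regions called early in the elution and not late were counted as low side: peaks of all 3 lists FT, G20 and G100, and no peak of G500, G700 or G1000. With all peaks, 93 of the 546 regions that all 3 low-side lists called were low side on chromosomes 17 and 22, 17.0%, beside 11.4% on the rest and 11.7 percent over the whole series. Of these 69 lay on chromosome 17 and 24 on chromosome 22, G200 also called 62 of them, beside 573 of 1050 low-side regions on the rest, and G300 called 67, beside 751 of 1050. The reverse, the high side, held 0 of 214 regions, beside 0.0441% on the rest and 0.0421 percent over all. The low-side lists are longer, so the low side is favoured by length alone.

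At equal length the low side was still more frequent on chromosomes 17 and 22. It held 19 of 288 regions, 6.60%, beside 2.39% on the rest and 2.64 percent over all. Chromosome 17 had 13 of 191 (6.81%) and chromosome 22 had 6 of 97 (6.19%). The high side held 3 of 189, 1.59%, beside 1.89% on the rest and 1.87 percent over all, and all 3 lay on chromosome 17. Low-side and high-side shares were thus apart on these chromosomes (6.60% and 1.59%) and closer on the rest (2.39% and 1.89%). Only the whole lists were of equal length. On these chromosomes the low-side lists still held more peaks, 548 (FT), 474 (G20) and 427 (G100), beside 399 (G500), 371 (G700) and 406 (G1000). The low side was thus still favoured there by the number of peaks. These counts were not tested, since the lists have no replicates.

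The low-side region of highest mean rank lay on chromosome 17 from 79212708 to 79213347 (hg19, as all positions here). Its fold enrichment, the authors' ratio of the summit pileup to the background, was 8.38 for FT, 8.30 for G20, 9.06 for G100, 7.95 for G200 and 7.08 for G300. Its −log10 q was between 8.52 and 19.2 in those 5 lists, and no later wash called it. On chromosome 22 the leading low-side region ran from 38577586 to 38578174, with folds of 7.19 for FT, 7.06 for G20, 5.90 for G100, 6.86 for G200 and 8.80 for G300. On these chromosomes the high side held 0 regions with all peaks. Each of the 3 at equal length thus also had a peak of FT, G20 or G100, which the cut removed. FT peaks were kept down to 7.89 on the −log10 q scale, G20 peaks to 7.18 and G100 peaks to 4.45. The cut reached 3.23 for G500, 1.32 for G700 and 3.23 for G1000, so weak high-side regions are partly built in. The 3 high-side regions of equal lists were weaker than the leading low-side ones. The one from 70116578 to 70117439 on chromosome 17 had folds of 6.81 for G300, 4.86 for G500, 6.63 for G700 and 6.28 for G1000. The other two, from 66015801 to 66016519 and from 26898311 to 26898971, were in G200, G500, G700 and G1000 and had a −log10 q between 2.25 and 10.8. Gene names were not assigned, because no annotation in the files' build was used here.

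The 10 strongest regions called in all lists, 5 on each chromosome, had folds between 6.58 and 15.4 over the 8 libraries. On chromosome 17 the 5 regions with the highest mean rank of −log10 q began at 19090984, 44438647, 22252897, 61699052 and 57232254 and were 501 to 1176 bp wide. The one from 44438647 to 44439705 had folds of 10.2 for FT, 15.4 for G20, 12.4 for G100, 13.5 for G200, 12.1 for G300, 11.8 for G500, 11.6 for G700 and 14.2 for G1000. It stood highest in G20 and lowest in FT, within a range of folds from 10.2 to 15.4. On chromosome 22 the 5 began at 39101304, 20378225, 36783763, 21056516 and 41985583 and were 833 to 1448 bp wide. The one from 39101304 to 39102136 had folds of 10.0 for FT, 13.5 for G20, 12.2 for G100, 13.0 for G200, 11.7 for G300, 9.90 for G500, 9.70 for G700 and 10.2 for G1000. The widest region lay on chromosome 17 from 27052395 to 27054359, 1965 bp built from 5 peaks of 4 lists with folds of 3.50 to 4.16, and the widest of chromosome 22 from 28314773 to 28316454, 1682 bp.

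Along the chromosomes the lists had nearly the same profile of peaks per 5 Mb. Rank correlations between pairs of lists over the 17 bins of chromosome 17 were 0.84 to 0.98 with all peaks, median 0.92, and over the 8 bins of chromosome 22 that hold regions 0.85 to 0.99, median 0.92. At equal length the medians were 0.94 and 0.91. These are descriptions, since the bins differ in gene content and in the sequence that can be mapped. The densest bin of chromosome 17 was 40 to 45 Mb with 158 regions, and the sparsest was 50 to 55 Mb with 21. On chromosome 22 it was 35 to 40 Mb with 123 regions, though at equal length 20 to 25 Mb held the most (57, beside 56).

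Within that profile G200 stood out in part of the long arm of chromosome 17. In the 40 to 45 Mb bin at equal length there were 48 peaks for FT, 40 for G20, 30 for G100, 56 for G200, 34 for G300, 35 for G500, 25 for G700 and 29 for G1000. In the 45 to 50 Mb bin G200 had 44 peaks, beside 18 in G700 to 32 in FT and G20. G200 had the most peaks, ties included, in 8 of the 17 bins of chromosome 17 and in 3 of the 8 bins of chromosome 22, and FT did in 7 and in 5. In the bins from 25 to 35 Mb, beyond the centromere, G200 was narrowly the lowest of the 8 lists at equal length. It had 16 peaks from 25 to 30 Mb, beside 17 in G700 and G1000 and 27 in FT. From 30 to 35 Mb it had 5, beside 6 in G20, G100, G300 and G1000 and 13 in FT. With all peaks G200 was not the lowest there, with 35 and 17 peaks beside 17 and 10 in G700.

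**Figure D3:**
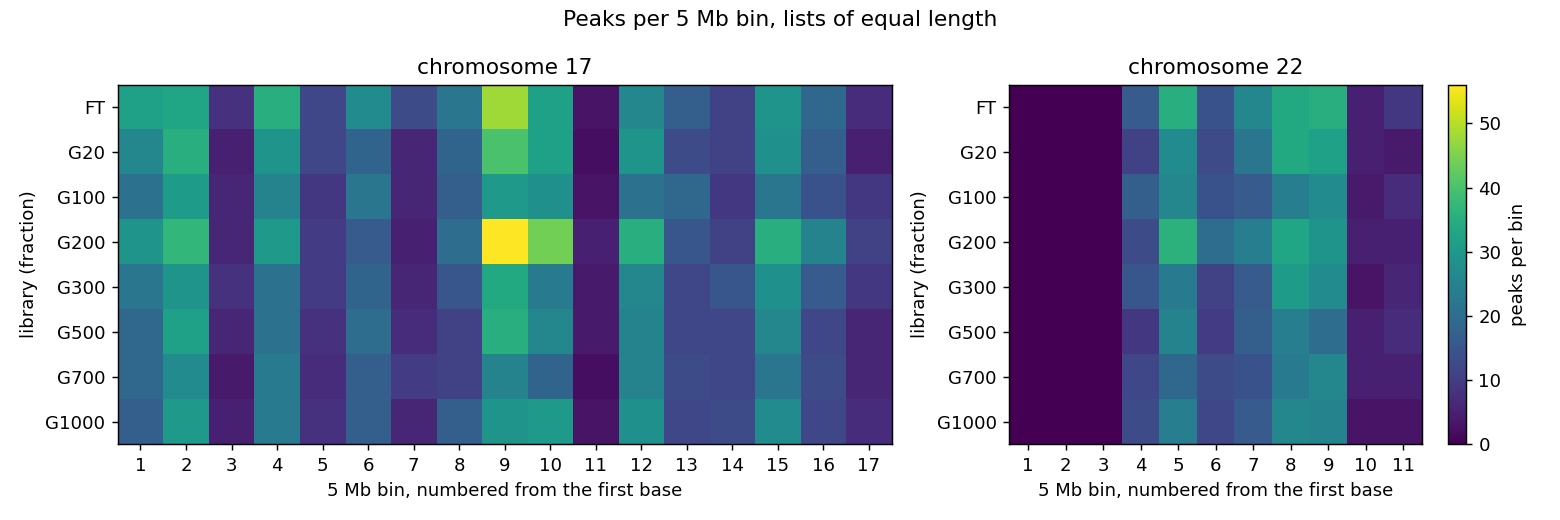
Peaks per 5 Mb bin (colour) in lists of equal length for the 8 libraries (rows) along chromosome 17 (left) and chromosome 22 (right), bins numbered from the first base. Bin 9 of chromosome 17 is brightest in G200 (56 peaks) and FT (48), and bins 1 to 3 of chromosome 22 hold no peak in any list.

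The longest stretches without a region held the centromere of chromosome 17 and the short arm of chromosome 22. That of chromosome 17 ran from 22261676 to 25431614, 3.17 Mb, and the next from 51183583 to 53045762, 1.86 Mb. On chromosome 22 the first region began only after 16166324 bases, and the longest stretch between regions ran from 47671930 to 48888153, 1.22 Mb. The short arm of chromosome 17, before the centromere, held 27.3% of its peaks in FT, 27.1% in G200 and 31.5% in G700, with overlapping intervals (24.5 to 30.2, 24.0 to 30.4 and 25.8 to 37.6).

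Depth in shared regions was read from pileups. The number of reads at a peak's summit was recovered from the deposited fold and −log10 p, and the highest pileup of each library in a region was set against the number expected from that library's share of all reads in ordinary shared regions. Ordinary regions are regions of all 8 lists on placed chromosomes, more than 1 Mb from the longest stretch without a region and more than 20 kb from a chromosome's ends. There were 4081 of them, 130 on chromosome 17, 64 on chromosome 22 and 3887 on the rest. Reads of a region are shared out among 8 libraries, so a share above expectation in one library lowers the others. The median pileup of a peak was 10 to 14 reads by library, so single regions carry wide intervals and sums over a chromosome narrow ones.

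On chromosome 17, G200 had 3575 reads where 2870 were expected, a ratio of 1.25 (95% Poisson interval 1.21 to 1.29), the highest of 23 chromosomes. FT had a ratio of 1.06 (1.03 to 1.09) and G20 of 1.01 (0.976 to 1.04). The ratio was 0.927 for G100, 0.927 for G300, 0.919 for G500, 0.916 for G700 and 0.926 for G1000, and each of these 5 intervals lay below 1. Without G200 the G20 ratio was 1.05 (1.01 to 1.08), with its interval above 1. G200 was above expectation in 111 of the 130 regions (85.4%), beside 43.2% of the regions on the rest, with a median ratio of 1.24, so the excess was spread over the regions.

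On chromosome 22 both FT and G200 were above expectation. FT had 2300 reads where 1963 were expected, a ratio of 1.17 (1.12 to 1.22), the highest of 23 chromosomes, with 52 of 64 regions above expectation (81.3%, beside 49.7% on the rest). G200 had a ratio of 1.13 (1.08 to 1.19), rank 3, with 42 of 64 regions above. G20 had 1.02, G100 0.893, G300 0.931, G500 0.912, G700 0.897 and G1000 0.909. Chromosome 17 and chromosome 22 thus shared the 2 libraries above expectation and the 5 below it, and each of these 2 libraries had intervals on the 2 chromosomes that did not overlap. Between the libraries, the G200 interval lay above that of FT on chromosome 17, and the intervals overlapped on chromosome 22.

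**Figure D4:**
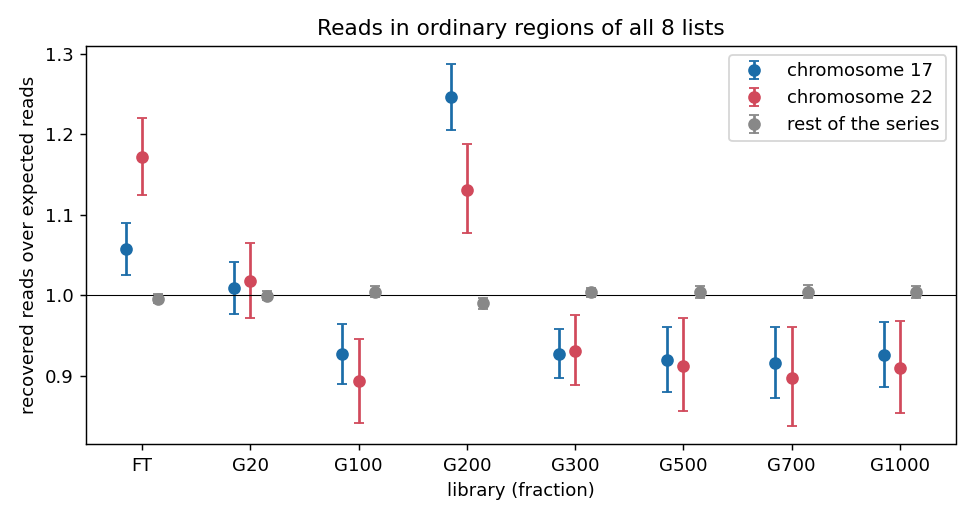
Recovered reads over expected reads (vertical axis, with the line at 1) in ordinary regions of all 8 lists, by library, for chromosome 17 (blue), chromosome 22 (red) and the rest of the series (grey); bars are 95% Poisson intervals. Chromosome 17 is highest in G200 (1.25), chromosome 22 in FT (1.17), and the rest stays between 0.990 and 1.00.

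How far a library lies above 1 depends on the scaling, while its ratio to the rest does not. With expected shares from each library's background pileup, FT was below 1 on both chromosomes, at 0.805 on chromosome 17 and 0.893 on chromosome 22, and the rest stood lower still at 0.758. G200 was then 1.91 on chromosome 17, 1.74 on chromosome 22 and 1.52 on the rest. Relative to the rest, both scalings give 1.06 for FT and 1.26 for G200 on chromosome 17, and 1.18 and 1.14 on chromosome 22. Background pileups ran from 0.239 in G200 to 0.662 in FT, and peak calling settings were not given in the sources used here.

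By 5 Mb bin the G200 excess covered most of chromosome 17. The ratio was above 1 in 14 of the 16 bins with ordinary shared regions, and in 11 of them the interval lay above 1. It was 1.37 (1.24 to 1.51) from 40 to 45 Mb, where all 14 regions were above expectation, and 1.38 (1.24 to 1.54) from 45 to 50 Mb. The 2 bins below 1 were 25 to 30 Mb (0.883, 0.715 to 1.08) and 30 to 35 Mb (0.894, 0.579 to 1.32), whose intervals include 1. On chromosome 22 the FT ratio was above 1 in all 8 bins and its interval in 5, and the G200 ratio was above 1 in 7 and its interval in 3. G200 was lowest on chromosome 22 from 15 to 20 Mb (0.873, 0.690 to 1.09), where 0 of 6 regions were above expectation. Each bin holds 1 to 18 regions.

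Other chromosomes lay on the same side. Chromosome 19 had a G200 ratio of 1.22 (1.20 to 1.25) and a FT ratio of 1.05, and chromosome 20 had 1.11 and 1.09. Chromosome 15 was lowest in G200 at 0.849 and chromosome 13 lowest in FT at 0.930. Over 23 chromosomes the rank correlation of the read ratio with coding genes per Mb was 0.75 for FT, 0.52 for G20, −0.68 for G100, 0.56 for G200, −0.80 for G300, −0.60 for G500, −0.55 for G700 and −0.61 for G1000. Without chromosomes 17 and 22 it was 0.70 for FT, 0.44 for G200 and −0.74 for G300 over 21 chromosomes. The points share libraries and depth and the ratios of a chromosome are not independent, so these are descriptions. Gene density therefore moved with the read ratio across chromosomes, and its part in the values of chromosomes 17 and 22 was not tested.

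**Figure D5:**
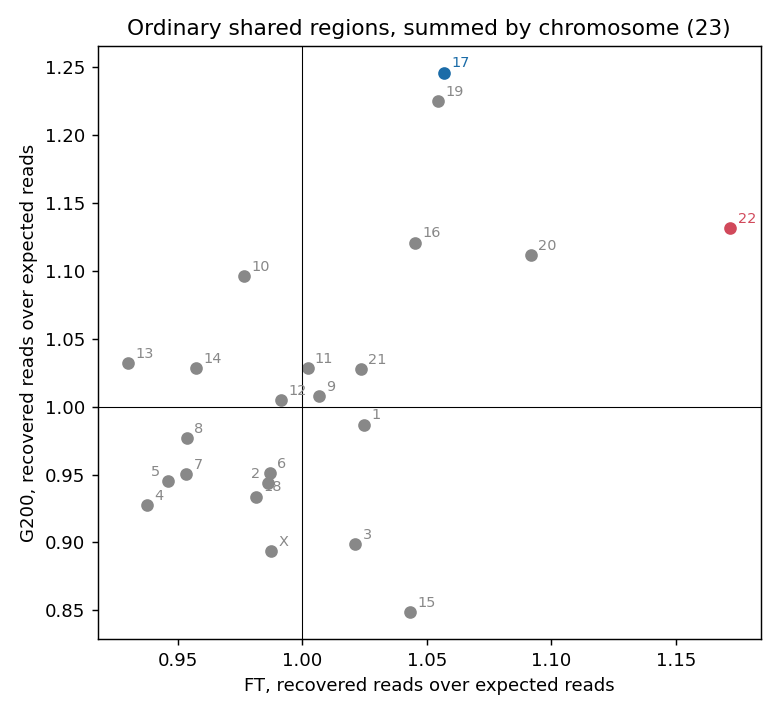
Recovered over expected reads in FT (horizontal axis) and in G200 (vertical axis), summed over the ordinary shared regions of each of 23 chromosomes, with lines at 1. Chromosome 17 lies highest (1.25 in G200), chromosome 22 farthest right (1.17 in FT), and chromosomes 19, 16 and 20 also lie above 1 on both axes.

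Single regions were tested with an exact binomial test of each library's reads against the other 7, two-sided and Benjamini-Hochberg adjusted over 33592 tests in 4199 shared regions of the whole series. On chromosomes 17 and 22, 5 of 198 regions were called in any library, 2.53%, beside 2.55 percent over the whole series, a share near the background. With expected shares from the background pileup, 89 of the 198 regions were called (44.9%), beside 27.5% on the rest, and G200 was called in 43.9%, beside 18.0 percent on the rest, so the comparison of calls depends on the scaling. The 5 regions above were called with expected shares from ordinary shared regions. Of the 198 regions, G200 was called in 4 (2.02%), beside 1.90% on the rest. It was higher in 2 and lower in 2, beside 0.762 and 1.14 percent over the whole series. FT was higher in 2 of the 198 (1.01%), beside 0.595 percent over the whole series, and G20 was lower in 1 (0.505%), beside 0.31 percent. With those expected shares the other 5 libraries had no call on chromosomes 17 and 22 at an adjusted p under 0.05. Leaving out G200 left 2 called regions, and leaving out FT left 4.

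Beside the centromere of chromosome 17, both called regions were low in G200 by reads. The region from 22252897 to 22253397 had 144 reads for FT, 77 for G20, 106 for G100, 35 for G200, 125 for G300, 69 for G500, 69 for G700 and 82 for G1000. G200 was at 0.398 of its expected 87.8 reads (0.278 to 0.554, exact binomial adjusted p = 1.69e-08) and G20 at 0.680 (0.537 to 0.850, exact binomial adjusted p = 0.0239). The G20 call was lost without FT (exact binomial adjusted p = 0.09) and under background scaling (exact binomial adjusted p = 0.150). By fold G200 was not lowest in this region, at 7.12, beside 6.58 for G20, 6.85 for G500 and 7.54 to 9.64 in the other lists. Its −log10 q of 17.3 was the lowest. The neighbouring region from 22260445 to 22261675 had 107 reads for FT, 75 for G20, 48 for G100, 26 for G200, 63 for G300, 44 for G500, 35 for G700 and 46 for G1000. G200 was at 0.471 of expectation (0.308 to 0.691, exact binomial adjusted p = 0.00214) and FT at 1.41 (1.16 to 1.71, exact binomial adjusted p = 0.0343). Without G200 the FT call was lost (exact binomial adjusted p = 0.375), and under background scaling both calls were lost (exact binomial adjusted p = 0.533 for G200 and 0.908 for FT). Summed over chromosome 17, G200 was above expectation, although it was also below 1 in the bins from 25 to 35 Mb.

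The other 3 called regions were ordinary ones with an excess. On chromosome 17 from 76182956 to 76183835 there were 27 reads for FT, 31 for G20, 28 for G100, 47 for G200, 30 for G300, 15 for G500, 10 for G700 and 22 for G1000, and G200 was at 1.80 of expectation (1.32 to 2.40, exact binomial adjusted p = 0.0130). On chromosome 22 from 30162503 to 30163551 G200 again had the most, with 31 reads for FT, 17 for G20, 14 for G100, 37 for G200, 21 for G300, 15 for G500, 14 for G700 and 10 for G1000, and a ratio of 1.87 (1.32 to 2.58, exact binomial adjusted p = 0.0289). On chromosome 22 from 24316530 to 24317373 FT led, with 55 reads for FT, 31 for G20, 11 for G100, 20 for G200, 29 for G300, 25 for G500, 11 for G700 and 11 for G1000, and a ratio of 1.67 (1.26 to 2.17, exact binomial adjusted p = 0.0166), a call lost under background scaling (exact binomial adjusted p = 0.357). The chromosome sums do not rest on these regions: without called regions G200 was 1.24 on chromosome 17 and 1.13 on chromosome 22, and FT was 1.06 and 1.16.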

How the data were processed

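ATAC-seq peak lists of 8 fractions, 1 library each, were used. The submitters' processing notes name the tools Bowtie2 2.2.6, HOMER and MACS2 2.2.1 and both hg19 and mm10 as builds. The sequence names in the files are those of hg19. What reads were filtered or shifted for the transposase, and how peak calling was set, is not given in the sources used here. For every peak the deposited lists give a whole-number score, the fold enrichment (a ratio), −log10 p and −log10 q, all as the authors' peak caller wrote them, library by library.

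The members, named regions and tests were chosen with earlier results of these data known. Named are, per chromosome, among the regions called everywhere, the 5 of highest mean rank of −log10 q, up to 3 low-side and 3 high-side regions by that rank, the widest region, the longest stretches without a region, the densest and sparsest bins and every region called in the read test; of the low-side regions only the first of each chromosome is printed.

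MACS2 divides the pileup plus 1 by the background plus 1 to give the fold, and takes p from a Poisson tail. The whole number of reads, at most 3000, that meets both equations was found with −log10 p matched within 0.001. It was unique for 98.9% (G20) to 99.8% (G300) of peaks. After shuffling p-values among 2000 peaks per list, 0.3% to 1.25% matched. Pileups are called reads, although they may be fragments. A library's total depth is unknown. On counts simulated for the 4199 shared regions, the binomial test of reads of 1 library against the other 7 called 98% of regions changed 4-fold, 25% of those changed 2-fold and 0.25% of unchanged ones. The longest stretch without a region was counted from a chromosome's first base, so that the short arm of acrocentric chromosomes counts as one. Coding genes were counted by chromosome in RefSeq's GRCh38.p14 table, and no position was read from it. Tools were Python 3.11.15, pandas 2.3.3, scipy 1.17.1, statsmodels 0.14.6, numpy 2.4.6 and matplotlib 3.10.9.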

Additional observations from a re-analysis of the deposited data

How the results depend on the processing

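No paired analysis was possible because each fraction is 1 library. Counting each result under each alternative, 59 values that answer a comparison kept their call or stayed within their interval, 33 moved, 2 reversed, 1 no longer passed and 1 newly passed; of single regions or libraries, 91 were kept, 4 moved and 6 no longer passed. With the −log10 q minimum at 5, regions of all 8 lists on chromosomes 17 and 22 numbered 98, the share of FT's peaks was 6.38%, and median widths in bp were 641 (FT), 532 (G20), 525 (G100), 571.5 (G200), 559 (G300), 487 (G500), 448 (G700) and 482 (G1000). At equal length that share was 6.76%, and median widths were 690 (FT), 576.5 (G20), 514 (G100), 576 (G200), 584.5 (G300), 466 (G500) and 441 (G1000). Median spacing in kb was then 90.5 (FT), 94.2 (G20), 120.4 (G100), 84.3 (G200), 122.8 (G300), 124.7 (G500) and 116.2 (G1000), low-side regions numbered 19 and high-side regions 3, and the densest bin of chromosome 22 began at 20 Mb. Shorter lists space their peaks wider and hold stronger peaks by construction. The share trend with all peaks passed with FT ranked before G20 (rho −0.83, adjusted p 0.0461), and the width trend did not pass without G200 (rho −0.89, adjusted p 0.1). Background scaling turned FT's read ratio below 1, to 0.805 on chromosome 17 and 0.893 on chromosome 22, moved G200's to 1.91 and 1.74, and gave 89 called regions in place of 5 (44.9%, beside 27.5% on the rest). Without G200 the called regions numbered 2, and FT's ratio on chromosome 17 was 1.10. With expected shares from regions outside chromosomes 17, 19 and 22 there were 7 calls, and, added after seeing the data, 4 without FT and 5 with the longest stretch counted between regions only. Summit pileups of 10 to 14 reads limit what single regions can show. Promoters of gene lists, with another window and at equal length, were not run, since no annotation in the files' build was used here.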

Other observations

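Peaks on a sequence assigned to chromosome 17 but not placed on it were left out of the values of chromosome 17 above. They were counted in the whole lists and in the rest of the series, but not among ordinary regions. FT listed 6 such peaks, G20 and G100 listed 2 each, G200, G300, G500 and G1000 listed 3 each, and G700 listed 2. Their highest −log10 q was 56.7 for FT, 63.4 for G20, 55.7 for G100, 86.9 for G200, 64.0 for G300, 44.6 for G500, 37.0 for G700 and 39.6 for G1000. By −log10 q G200 was highest there, while by reads it was lowest in both called regions beside the centromere of chromosome 17. These are unlike measures, and no read numbers are given for the unplaced sequence.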
